A study of Drosophila melanogaster with 34 samples.

Results

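Regions listed for the histone deacetylase HDAC3 and for none of the other deacetylases mapped in embryos of the same stage and stock were described here. Histone deacetylases remove acetyl groups from histone tails and other proteins, which in general goes with lower transcription. HDAC3 is the catalytic subunit of corepressor complexes built on NCoR and SMRT in mammals and on Smrter in flies, and nuclear receptors are among the factors that recruit them. HDAC1, called Rpd3 in flies, acts in other complexes such as Sin3 and NuRD. HDAC6 is best known as a cytoplasmic tubulin deacetylase.

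Chromatin immunoprecipitation followed by sequencing (ChIP-seq) gave 18 lists of bound regions in Drosophila melanogaster, and 16 more samples were inputs. HDAC1, HDAC3, HDAC4a, HDAC6 and HDAC11 each had 2 lists from whole embryos of 0 to 12 h of a y; bw cn sp stock, all compared with 1 input library. The HDAC3 lists, HDAC-498 and HDAC-499 by title, are called list 1 and list 2. The CTCF lists (200 and 500) came from S2 cells, an embryo-derived line. Caudal was mapped with a Caudal antibody in y; bw cn sp embryos of 0 to 4 h. It was mapped with a GFP antibody in cad-GFP animals, whose stock was y w, VK33, at 4 to 8 h, in L3 larvae and in adult females of 21 days. EcR was mapped with the GFP antibody in EcR-GFP animals of the same stock, labelled as white prepupae 10-11 and 30-33. The inputs of the GFP samples were from y; bw cn sp animals. Each list pooled 1 to 3 libraries, with 1 library behind the Caudal list at 4 to 8 h and 1 behind that of adult females. Whole animals mix many cell types, so proteins listed at the same region need not lie there in the same cell.

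The regions were chosen by the peak positions in the 10 HDAC lists. They were those peaks of HDAC3 list 2 on the major arms (2L and 2R, 3L and 3R, X and chromosome 4) that overlapped a peak of HDAC3 list 1 by 1 bp or more and overlapped no peak in the 8 lists of HDAC1, HDAC4a, HDAC6 and HDAC11. They numbered 321 of the 2552 peaks in HDAC3 list 2 (12.6%), or 13.9% (95% Wilson interval 12.6% to 15.4%) of the 2306 peaks found in both HDAC3 lists. The series held 48081 regions on these arms in all. The other 1985 peaks found in both HDAC3 lists overlapped at least 1 other deacetylase list and are called shared HDAC3 peaks below. Of these, 76.3% overlapped HDAC1 list 2, 74.4% HDAC6 list 2 and 66.9% HDAC1 list 1. The regions without another deacetylase are called HDAC3-alone regions. The name describes the deposited lists only, since no read counts came with the lists and the depth behind an absent peak is unknown. Each list was a single observation, so no difference given here was tested, and all intervals cover counting error only and treat regions as independent.

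HDAC3-alone regions were narrower than shared HDAC3 peaks. Their widths ran from 1108 to 12223 bp with a median of 3883 bp and quartiles of 2828 and 5509 bp. Shared peaks ran from 1313 to 52014 bp with a median of 6799 bp. A wide peak has more room to meet another list, so the rule itself favours narrow regions, and the comparison is a description. In sum the HDAC3-alone regions held 1.17% of the bases of the arms, against 13.8% for the shared peaks.

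Overlap with HDAC3 list 1 was part of the rule, so the agreement of the 2 HDAC3 lists is given as a description. In list 1, 305 of the 321 regions met a single peak, 14 met 2 peaks and 2 met 3. In the 293 cases where 1 peak of each list met only the other, the median width was 3830 bp in list 2 and 3460 bp in list 1, and 220 were wider in list 2. The bases common to both peaks made up a median of 89.6% of their combined extent (quartiles 78.0% and 94.8%), against 93.5% in the 1628 such cases among shared peaks. Starts differed by a median of 161 bp and ends by 127 bp, and no interval was identical. Both ends lay within 200 bp of each other in 108 of the 293 cases. Peaks of list 1 covered a median of 92.8% of an HDAC3-alone region, but under 50% of it in 14 regions. The smallest overlaps were 11 bp and 67 bp, at chr3L:14988960-14990855 and chr3L:16958627-16960753, which pass the rule by their edges only. The list 1 counterparts were also clear of every other deacetylase list for 303 regions, while 18 regions had a list 1 peak that reached a peak of another deacetylase.

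Many of the regions lay close to another deacetylase. The gap to the nearest peak of HDAC1, HDAC4a, HDAC6 or HDAC11 had a median of 1813 bp (quartiles 709 and 4146 bp). It was under 1000 bp for 100 regions and over 10000 bp for 25. HDAC1 list 2 held the nearest peak for 103 regions. The regions just inside the rule were chr3R:26030544-26035148, which lay 17 bp from a peak of HDAC6 list 1, chr2L:860563-864801, 28 bp from HDAC4a list 1, and chrX:15787764-15791381, 43 bp from HDAC1 list 2. Just outside it, chr3R:7577956-7582772 was touched over 12 bp by HDAC1 list 2, chr2R:13573522-13578264 over 15 bp by HDAC11 list 1 and chr3R:15677264-15683773 over 22 bp by HDAC1 list 2. Among shared peaks, 10 met less than 100 bp of other deacetylases and 235 were touched by a single list.

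Other regions lay far from any other deacetylase peak. With peaks of other deacetylases on both sides, the most isolated was chr3R:22277717-22281204, 80162 bp from the nearest. It was followed by chr3L:23322157-23323927 at 69419 bp and chr3L:23315954-23317096 at 63216 bp, neighbours in the last part of 3L towards the centromere. Toward the end of 2L, chr2L:22959290-22961168 had its nearest other deacetylase peak 221119 bp away on the side of the arm and none on the other side.

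Chromosome 4 stood out by position. This small chromosome is largely heterochromatic and is bound along its length by the protein POF and by HP1a. It holds 1.00% of the bases of the arms and carried 24 of the 321 HDAC3-alone regions (7.48%, interval 5.08% to 10.9%). Of the 39 HDAC3 peaks of chromosome 4 found in both lists, 24 (61.5%, interval 45.9% to 75.1%) had no other deacetylase, against 13.9% over all arms and 13.1% (11.8% to 14.6%) over the remaining arms. The share was 14.4% on 2L, 13.9% on 2R, 14.4% on 3L, 11.8% on 3R and 11.5% on X, and their intervals overlapped one another but not that of chromosome 4. Per Mb of arm there were 19.9 such regions on chromosome 4 and 2.50 on the other arms together.

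**Figure D1:**
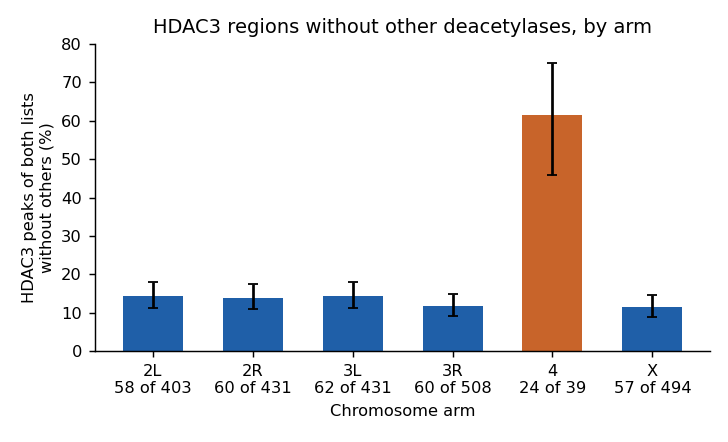
Percentage of HDAC3 peaks found in both lists that overlap no other deacetylase list, by chromosome arm, with 95% Wilson intervals as error bars and the counts under each bar. Chromosome 4 reaches 61.5% (24 of 39) and the other arms lie between 11.5% and 14.4%.

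Counted over their 8 lists, peaks of the other deacetylases were sparser there, although HDAC1 list 2 was denser. The 8 lists covered 15.4% of chromosome 4 and 25.7% of the other arms, with 131 and 190 peaks per Mb. HDAC1 list 2 held 64 peaks on chromosome 4, or 53.1 per Mb against 34.0 elsewhere, and HDAC1 list 1 held 21, or 17.4 against 25.0. The remaining 6 lists held 2 to 20 each. HDAC3 held 51 and 47, or 42.3 and 39.0 per Mb, against 21.5 and 21.1 elsewhere. The part of these densities and of the lower coverage in the share of HDAC3-alone regions was not tested. The median width was 3833 bp for the 24 regions and 4897 bp for the 15 shared peaks of the chromosome. Among peaks of up to 3000 bp, 6 of 11 on chromosome 4 had no other deacetylase (54.5%, 28.0% to 78.7%), against 89 of 239 elsewhere (37.2%, 31.4% to 43.5%), with overlapping intervals. Among peaks of 3001 to 5000 bp, 10 of 13 on chromosome 4 had no other deacetylase, against 118 of 593 (19.9%) elsewhere. Among those of 5001 to 8000 bp the counts were 8 of 12 and 70 of 623 (11.2%), and over 8000 bp they were 0 of 3 and 20 of 812 (2.46%). Without HDAC1 list 2 the share on chromosome 4 was 84.6% (33 of 39), and over all arms 402 of the 2306 peaks found in both HDAC3 lists met the rule.

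None of the 24 regions of chromosome 4 overlapped CTCF 200 or CTCF 500, which had 44 and 25 peaks on the chromosome. A count of 0 of 24 allows a share of up to 12.5%. Of the 15 shared peaks of the chromosome, 4 met CTCF 200 (26.7%, 10.9% to 52.0%) and 3 met CTCF 500 (20.0%, 7.05% to 45.2%), and of all 47 HDAC3 list 2 peaks there 5 and 4 did. Caudal was listed at 4 of the 24, and the lists were L3 larvae for chr4:553008-556802 and chr4:595747-598691, 4 to 8 h embryos for chr4:944909-949377 and 0 to 4 h embryos for chr4:970651-975867. The header of the L3 list names EcR while its label names Caudal, so the target at the L3 regions is in doubt. Any Caudal list met 3 of the 15 shared peaks and 9 of the 47, so the share in the 24 regions (16.7%, 6.68% to 35.9%) lay close to both (20.0% and 19.1%). The remaining 20 regions were in no list other than those of HDAC3. Neither EcR list had a region on chromosome 4.

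Away from chromosome 4 the regions lay on every arm. Over 121 windows of 1 Mb the median was 2 regions and the highest count was 7, in the first Mb of 3L, where 26 HDAC3 peaks were found in both lists. There were 9 windows with none. Among windows towards a centromere, picked after their values were seen, were 22 to 23 Mb of 2L, where 5 of 12 HDAC3 peaks found in both lists had no other deacetylase, and 23 to 24 Mb of 3L, where 4 of 5 had none. In the Mb of each arm nearest the centromere the counts were 5 of 12 on 2L, 2 of 5 on 2R, 4 of 21 on 3R and 1 of 10 on X, and the span held no such HDAC3 peak on 3L. Together these made 12 of 48 (25.0%, 14.9% to 38.8%), against 13.1% (11.8% to 14.6%) over the arms other than chromosome 4, of which these peaks are part. This span too was set after values were seen. The widths of these 48 peaks were not compared with the rest, and the rule favours narrow regions. Among peaks of up to 3000 bp off chromosome 4 the share was 37.2%, and the part of width was not tested. In most cases a region stood alone, with a shared or unmatched HDAC3 peak, or a peak of another deacetylase, before the next. This held for 281 regions, while 14 runs had 2 consecutive regions and 4 runs had 3.

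The longest run, chr3L:297165-328114, spanned 30950 bp in regions of 7496, 8708 and 11349 bp, and the only other list present was Caudal at 0 to 4 h, in the first of them. The next 2 runs lay on chromosome 4, chr4:137096-164168 (27073 bp) and chr4:1213687-1233393 (19707 bp), and no CTCF, Caudal or EcR peak met either set of 3 regions. The run of 3 at chr2R:20787358-20803671 differed from region to region, with both CTCF lists in the first, Caudal at 4 to 8 h in the second and no list in the third.

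Most HDAC3-alone regions had at most 1 of the 8 CTCF, Caudal and EcR lists. None of these lists entered the rule. Of the 321 regions, 127 (39.6%) were in none of them, 134 (41.7%) in 1, 39 in 2, 15 in 3, 5 in 4 and 1 in 5. Shared HDAC3 peaks were in none of the 8 in 9.67% of cases and reached 7 lists. Overlap with at least 1 list was 60.4% (55.0% to 65.6%) for HDAC3-alone regions, 90.3% (88.9% to 91.6%) for shared peaks and 83.6% for all peaks of HDAC3 list 2. The most frequent single pattern was Caudal at 4 to 8 h and nothing else, in 103 regions (32.1%). CTCF 200 alone followed with 16 and both CTCF lists with 12.

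CTCF, an insulator protein that marks domain borders, was listed less often at HDAC3-alone regions. CTCF 200 overlapped 58 of the 321 regions (18.1%, interval 14.2% to 22.6%), 1295 of the 1985 shared peaks (65.2%, 63.1% to 67.3%) and 56.3% of all HDAC3 list 2 peaks. CTCF 500 overlapped 32 regions (9.97%, 7.15% to 13.7%), 33.7% (31.7% to 35.8%) of shared peaks and 28.9% of all. With either list the counts were 60 regions (18.7%) and 57.9% of all peaks. Since S2 cells are a cell line and the HDAC lists came from whole embryos, source and target cannot be told apart.

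**Figure D2:**
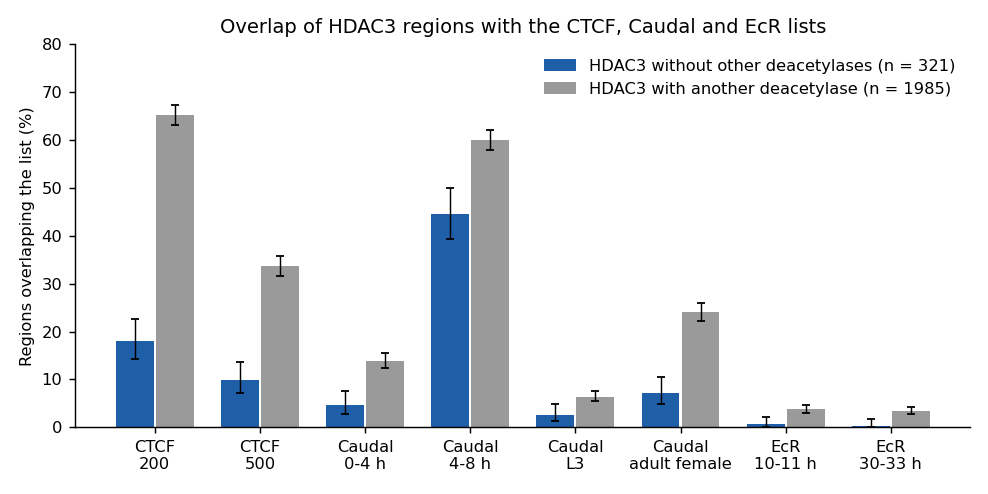
Percentage of HDAC3-alone regions (blue, n = 321) and of shared HDAC3 peaks (grey, n = 1985) that overlap each CTCF, Caudal and EcR list by 1 bp or more, with 95% Wilson intervals as error bars. The bars of the 2 sets are nearest in ratio for Caudal at 4 to 8 h (44.5% and 59.9%) and far apart for CTCF 200 (18.1% and 65.2%).

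Within classes of width, CTCF 200 was listed less often at HDAC3-alone regions in all 4 classes and CTCF 500 in 3 of 4. Up to 3000 bp, CTCF 200 met 10 of 95 HDAC3-alone regions (10.5%, 5.82% to 18.3%) and 48.4% (40.7% to 56.2%) of 155 shared peaks. From 3001 to 5000 bp the shares were 15.6% and 56.3%, and from 5001 to 8000 bp 24.4% and 61.4%. Over 8000 bp they were 45.0% (25.8% to 65.8%) of 20 regions and 76.6% (73.5% to 79.4%) of 795 peaks. The intervals were apart in each of the 4 classes. For CTCF 500 the shares were 4.21% (1.65% to 10.3%) and 22.6% (16.7% to 29.8%) up to 3000 bp, 7.81% (4.30% to 13.8%) and 27.2% (23.4% to 31.4%) from 3001 to 5000 bp, and 11.5% (6.19% to 20.5%) and 30.3% (26.7% to 34.3%) from 5001 to 8000 bp. Over 8000 bp they were 45.0% (25.8% to 65.8%) and 42.1% (38.8% to 45.6%), slightly higher in the HDAC3-alone regions and with overlapping intervals. Width varies within a class too, and its part in these shares was not tested.

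Caudal, a homeodomain factor that patterns the posterior embryo, was listed at shares that differed from list to list. The lists differ in antibody, stock, number of libraries and length as well as in stage, and these cannot be told apart. The L3 list is counted as Caudal by its label, although its header names EcR. The list of 4 to 8 h embryos overlapped 143 of the 321 HDAC3-alone regions (44.5%, 39.2% to 50.02%), 59.9% (57.8% to 62.1%) of shared peaks and 55.4% of all HDAC3 list 2 peaks. At 0 to 4 h the count was 15 regions (4.67%, 2.85% to 7.57%), against 13.9% (12.4% to 15.4%) of shared peaks and 12.3% of all. In adult females it was 23 regions (7.17%, 4.82% to 10.5%), against 24.0% (22.2% to 26.0%) and 21.0%, and in L3 larvae 8 regions (2.49%, 1.27% to 4.84%), against 6.45% (5.45% to 7.62%) and 5.72%. Any Caudal list met 166 regions (51.7%) and 68.2% of all peaks, and without the 4 to 8 h list the count was 44 regions (13.7%). The 4 to 8 h list was the longest of the 18, with 5587 peaks on the arms.

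Within classes of width, the 4 to 8 h Caudal list met HDAC3-alone regions and shared peaks at shares whose intervals overlapped. The shares were 30.5% (22.2% to 40.4%) and 29.7% (23.0% to 37.3%) up to 3000 bp, and 40.6% (32.5% to 49.3%) and 46.2% (41.8% to 50.7%) from 3001 to 5000 bp. They were 61.5% (50.4% to 71.6%) and 56.4% (52.2% to 60.4%) from 5001 to 8000 bp, and 70.0% (48.1% to 85.5%) and 76.6% (73.5% to 79.4%) above that. Caudal in adult females was lower with intervals apart in the 2 middle classes, at 6.25% (3.20% to 11.8%) against 21.8% (18.3% to 25.7%) and 6.41% (2.77% to 14.1%) against 23.5% (20.2% to 27.2%). In the narrowest class it was 5.26% (2.27% to 11.7%) against 12.9% (8.51% to 19.1%) and in the widest 25.0% (11.2% to 46.9%) against 27.9% (24.9% to 31.1%), with overlapping intervals. At 0 to 4 h the intervals were apart from 3001 to 5000 bp alone, at 2.34% (0.8002% to 6.66%) against 9.21% (6.93% to 12.1%), and the other classes gave 2.11% against 7.10%, 10.3% against 12.9% and 10.0% against 18.6%. For L3 larvae they overlapped in every class, with 3.16% against 0.645% in the narrowest and 5.00% against 11.3% in the widest. Overlapping intervals do not show that the shares are equal.

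**Figure D3:**
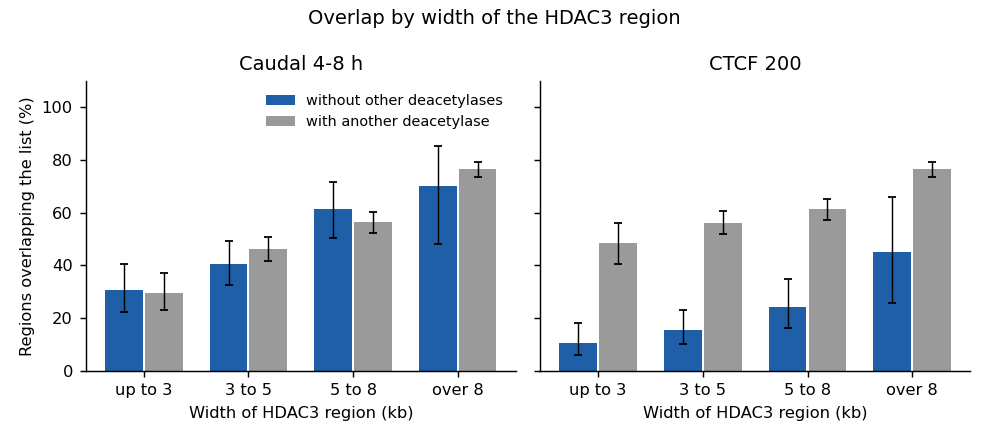
Percentage of HDAC3-alone regions (blue) and shared HDAC3 peaks (grey) that overlap the Caudal list of 4 to 8 h embryos (left) and CTCF 200 (right), in 4 classes of region width, with 95% Wilson intervals as error bars. The 2 sets lie close together for Caudal in each class, whereas CTCF 200 stays lower in HDAC3-alone regions, for example 10.5% against 48.4% in the narrowest class.

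Peak midpoints were also counted per Mb, which scales the count by the length of the regions. Such a density can still vary with region width, and this was not tested. By this measure the 4 to 8 h Caudal list had 113 midpoints per Mb (exact Poisson interval 96.5 to 133) in HDAC3-alone regions and 109 (104 to 114) in shared peaks. Within 5000 bp of the HDAC3-alone regions but outside any peak of HDAC3 list 2 it had 43.7 (35.8 to 53.0), and over the arms 46.5. CTCF 200 had 43.5 (33.3 to 55.9) in HDAC3-alone regions and 103 (98.2 to 108) in shared peaks, against 41.2 in the flanks and 40.6 over the arms. The CTCF 200 density of HDAC3-alone regions, averaged over their length, was therefore near that of the arms as a whole. CTCF 500 had 17.8 (11.5 to 26.3) in HDAC3-alone regions and 42.5 (39.4 to 45.8) in shared peaks. In the flanks CTCF 500 had 23.7, and over the arms 21.8.

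Caudal peaks of the other embryo stage and of adults were sparser in the regions than beside them. The rule keeps other deacetylase peaks out of the regions but not out of the flanks, and the part of this in the contrast was not tested. In adult females there were 7.85 midpoints per Mb (3.92 to 14.0) inside and 47.9 (39.6 to 57.5) in the flanks, with 24.4 (22.1 to 26.9) in shared peaks and 28.4 over the arms. At 0 to 4 h the values were 5.00 (2.01 to 10.3) inside, 16.7 (11.9 to 22.7) in the flanks, 13.1 (11.4 to 15.0) in shared peaks and 17.98 over the arms. The L3 list gave 5.00 (2.01 to 10.3) inside and 4.17 (2.00 to 7.66) in the flanks.

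**Figure D4:**
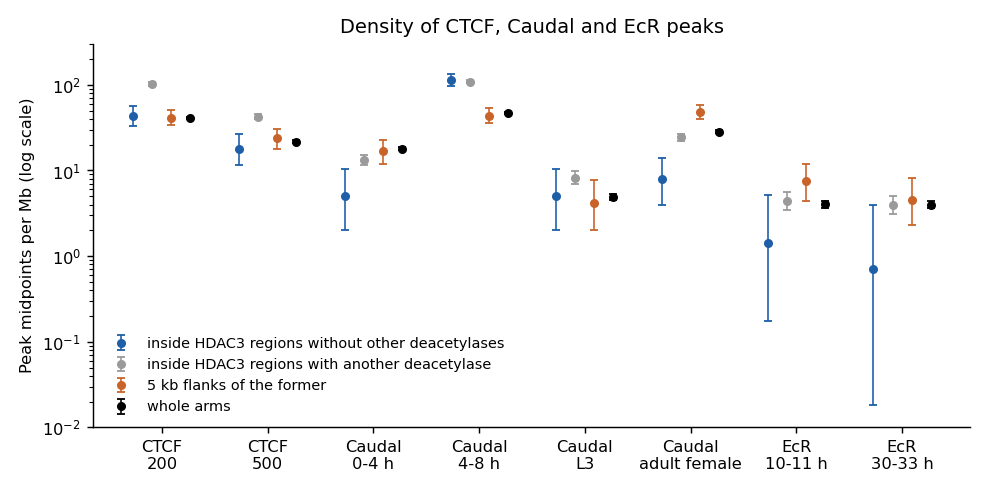
Midpoints of CTCF, Caudal and EcR peaks per Mb (log axis) inside HDAC3-alone regions (blue, 1.4 Mb in all), inside shared HDAC3 peaks (grey), in the 5000 bp flanks of HDAC3-alone regions (orange) and over the whole arms (black), with exact 95% Poisson intervals. Caudal at 4 to 8 h is at 113 inside HDAC3-alone regions and 43.7 in their flanks, whereas Caudal in adult females is at 7.85 and 47.9.

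Most of the 4 to 8 h Caudal peaks that met the regions lay wholly inside them. There were 176 such Caudal peaks at the 143 regions, and 116 regions held 1, 22 held 2 and 5 held 3 or more. Of the 176, 131 lay wholly inside the region, and 109 had their midpoint in its central 50%. Together they covered a median of 49.5% of the region (quartiles 33.4% and 66.5%). A peak that lies inside a region and spans much of it has its midpoint near the centre. The count in the central 50% is thus partly set by size, and the share given by size alone was not worked out. No such counts were made for shared peaks. In bins of 1000 bp, the density was 118 and 178 midpoints per Mb in the bins on either side of the centre, and between 18.7 and 84.1 in the remaining bins out to 10000 bp. Shared peaks also had their highest Caudal values at the centre, with 153 and 126 there and 66.5 to 92.2 in the remaining bins. CTCF 200 had 21.8 and 31.2 in the 2 central bins. At 6000 to 9000 bp it had 65.4 to 68.5 on the side of lower coordinates and 59.2 to 68.5 on the other side. Around the centres of shared peaks CTCF 200 peaked at 125 in the bin from 1000 to 2000 bp on the side of lower coordinates, with 112 on the other side. It was lower, at 63.5 and 87.2, in their 2 central bins.

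**Figure D5:**
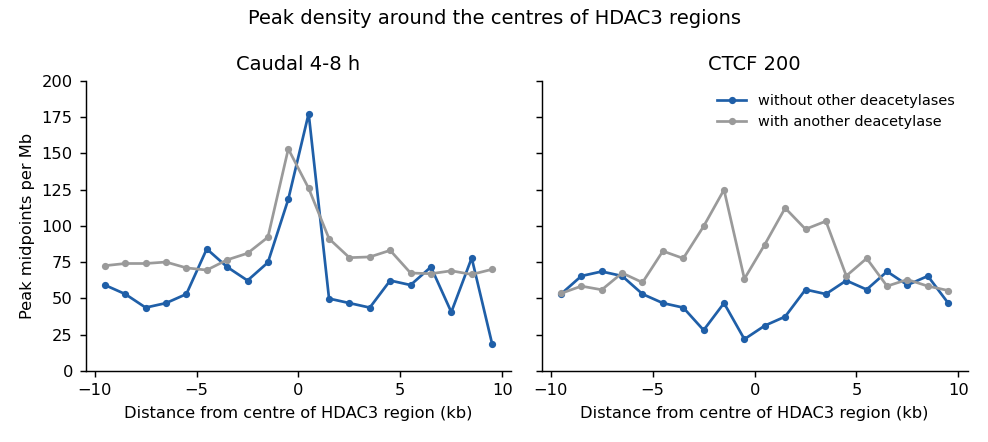
Midpoints per Mb of Caudal peaks of 4 to 8 h embryos (left) and of CTCF 200 peaks (right), in bins of 1000 bp by distance from the centre of HDAC3-alone regions (blue) and shared HDAC3 peaks (grey). In HDAC3-alone regions Caudal reaches 178 in the bin from 0 to 1000 bp, where CTCF 200 has 31.2. The lowest CTCF 200 value, 21.8, is in the other central bin, where Caudal has 118.

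Regions with a 4 to 8 h Caudal peak were wider, with a median of 4469 bp (binomial interval of the median 4099 to 5129 bp), than the 178 without, at 3553 bp (3205 to 3866 bp). A wide region has more room to meet any list. Among shared peaks the share with this list also rose with width, from 29.7% up to 3000 bp to 76.6% over 8000 bp. Of the 176 Caudal peaks at HDAC3-alone regions, 12 (6.82%, 3.94% to 11.5%) also met another Caudal list. The share was 12.1% (11.3% to 13.0%) for all 4 to 8 h peaks and 10.0% (8.77% to 11.5%) for those at shared HDAC3 peaks, with overlapping intervals. The median widths of these Caudal peaks were 1901, 1639 and 2266.5 bp in the same order. On chromosome 4, where this list had 6 peaks in all, 1 of 24 regions carried it, and elsewhere 142 of 297 (47.8%) did. The 4 to 8 h list differed from the HDAC lists in antibody, stock and number of libraries as well as in target, and these cannot be told apart.

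EcR, the nuclear receptor for the moulting hormone ecdysone, was listed at 2 of the 321 regions at 10 to 11 h (0.623%, 0.171% to 2.24%) and at 1 at 30 to 33 h (0.312%, 0.0550% to 1.74%). Shared HDAC3 peaks had 3.78% (3.02% to 4.71%) and 3.43% (2.71% to 4.32%), and all HDAC3 list 2 peaks 3.17% and 2.86%. With either list the counts were 2 regions (0.623%), and 4.08% of all peaks. Within the 4 classes of width the intervals of HDAC3-alone regions and shared peaks overlapped for both EcR lists, and no peak of up to 3000 bp met EcR in either set. The regions were chr3L:18611054-18618242, bound at both times, and chr2R:20873009-20885231, bound at 10 to 11 h. The EcR lists were short, at 483 and 478 regions on the arms. They were of animals labelled as white prepupae, where the HDAC lists were of embryos.

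The widest HDAC3-alone regions carried a Caudal peak of 4 to 8 h embryos in 8 of 10 cases. Over 8000 bp that list met 70.0% of HDAC3-alone regions and 76.6% of shared peaks, so a high share is common to wide peaks of both sets. The widest was chr2R:20873009-20885231 (12223 bp in list 2 and 9438 bp in list 1), which also met EcR at 10 to 11 h. Next was chr3R:5447291-5459356 (12066 bp, and 3 peaks of 11234 bp together in list 1), with CTCF 200 and Caudal at 0 to 4 h, 4 to 8 h and in adult females. After it came chr2L:1074209-1085788 (11580 bp and 11324 bp), with CTCF 500 and Caudal at 4 to 8 h and in L3 larvae. In contrast, chr3L:316766-328114 (11349 bp, inside a list 1 peak of 13731 bp that began further left) and chr2L:8216757-8226468 (9712 bp and 8847 bp) met no other list.

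Among the others of the 10 widest, chr2R:17436896-17447889 (10994 bp), chr2L:8182079-8192855 (10777 bp) and chr2R:8079865-8089754 (9890 bp) each met both CTCF lists and Caudal at 4 to 8 h. The pair chr2R:11405486-11415302 (9817 bp) and chr3R:20576772-20586579 (9808 bp) met Caudal at 4 to 8 h alone. List 1 agreed least at chr2L:8182079-8192855, where its 2 peaks held 5264 bp.

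The region with the most other lists was chr3L:18611054-18618242 (7189 bp in list 2 and 6980 bp in list 1), with both CTCF lists, both EcR lists and Caudal at 0 to 4 h. It lay 123 bp from a peak of HDAC1 list 2. A further 5 regions met 4 lists each. Of these, chr3R:17397468-17406574 and chr3L:3454892-3461080 met both CTCF lists and Caudal at 0 to 4 h and 4 to 8 h, and chrX:16519177-16527619 met both CTCF lists and Caudal at 4 to 8 h and in adult females. Another was chr3R:5447291-5459356, described above. The narrowest of the 5 was chr2L:8484623-8490498 (5876 bp), with both CTCF lists and Caudal at 4 to 8 h and in adult females, which the rule for named regions left out as ties went to the wider region, and which was added after its values were seen.

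The same rule applied to HDAC1, with HDAC1 list 2 in place of HDAC3 list 2, gave 117 regions, or 4.61% of the 2538 HDAC1 peaks found in both HDAC1 lists. Caudal shares differed between the 2 sets, but no shares over all HDAC1 peaks were counted to set beside them. The HDAC1 rule leaves out peaks that meet an HDAC3 list, and the HDAC3 rule those that meet an HDAC1 list. The part of the rules in these contrasts was not tested. The 4 to 8 h list met 9 of 117 HDAC1 regions (7.69%, 4.10% to 14.0%) against 44.5% of HDAC3-alone regions, and the 0 to 4 h list met 34 (29.1%, 21.6% to 37.8%) against 4.67%. Adult female Caudal likewise met 34 of the HDAC1 regions (29.1%) against 7.17%. CTCF 200 met 26 (22.2%, 15.6% to 30.6%) against 18.1%, with overlapping intervals. The HDAC1 regions were narrower, with a median of 2884 bp against 3883 bp, and per Mb they held 75.02 (49.9 to 108) CTCF 200 midpoints against 43.5 (33.3 to 55.9) and 42.9 (24.5 to 69.6) CTCF 500 midpoints against 17.8 (11.5 to 26.3). On chromosome 4, 2 of 17 HDAC1 peaks found in both lists (11.8%, 3.29% to 34.3%) had no other deacetylase.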

How the data were processed

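Fixation was in 1.8% formaldehyde, per the labels' protocols, and reads were 36 bp, per the series record; per the submitters' processing notes coordinates are on BDGP release 5. The authors deposited 15 lists with chromosome, start and end only, and 3 (both EcR lists and Caudal L3) with a score per region, the authors' own, used only to rank regions in 1 alternative. Which aligner and peak caller were used is not given in the sources used here. Libraries were pooled before deposit, per the titles, and nothing says that lists of a target came from separate collections, so their spread may be technical. The header of the Caudal L3 list names EcR; the label was followed.

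Starts were made 1-based. Overlap meant 1 bp or more, computed in Python 3.11.15 with numpy 2.4.6, pandas 2.3.3 and scipy 1.17.1, checked with bedtools 2.31.1 and tested on simulated lists. An arm ran from the lowest start to the highest end over all lists (120102709 bp in all). Shares have 95% Wilson intervals, densities exact Poisson intervals and medians binomial intervals. A count of 0 was taken to allow 3 regions. No test was run. Regions were named by fixed rules (the 10 widest, the 5 in the most lists, the 3 longest runs with 1 tie by number, the nearest to and farthest from other deacetylases). The regions, lists and rules were chosen with earlier results of these data known. Chromosome 4, the 4 to 8 h Caudal list, the HDAC1 comparison, flanks, profiles and the regions of chromosome 4 named singly were chosen after the values had been seen. The gene table at hand is of release 6 and no genome was used, so no gene or sequence was assigned. Alternatives were another overlap, a margin of 1000 bp, the upper 50% of each list, HDAC3 list 1 as the source of coordinates, leaving out each list, peak midpoints and all sequences of the build.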

Additional observations from a re-analysis of the deposited data

How the results depend on the processing

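Over 127 alternative values of 7 results, 114 stayed within the interval of the reported value (within 1.5 times for the number of regions) and 13 moved; the cause was not tested. With the upper 50% of every list, which thins the other deacetylases and keeps wide HDAC3 peaks by construction, there were 105 regions with a median width of 7636 bp, of which 38.1% met CTCF, 62.9% any Caudal list and 57.1% Caudal at 4 to 8 h. With coordinates from HDAC3 list 1 the median width was 3236 bp. Leaving out 1 list at a time gave 327 to 425 regions and median widths of 3134 to 4007 bp. It gave CTCF shares of 9.97% (without CTCF 200) to 25.9% (without HDAC6 list 2), Caudal shares of 13.7% (without the 4 to 8 h list) to 55.2%, EcR shares of 0.235% to 1.24%, and 40.3% to 48.5% for Caudal at 4 to 8 h. On chromosome 4 the share of HDAC3 peaks without another deacetylase was 61.5% to 84.6%, the highest without HDAC1 list 2, and 87.2% without both HDAC1 lists, a setting added after seeing the data. Over all arms there were 402 regions without HDAC1 list 2 and 459 without both HDAC1 lists. A margin of 1000 bp left 221 regions and 18 of 39 peaks on chromosome 4, and 50% of the smaller peak gave 451 regions. Without chromosome 4, 20.2% met CTCF and 54.5% Caudal. No paired analysis was possible because no result came from a test and the lists of a target carry no replicate number that pairs them across targets. Depth is unknown for every list.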

Other observations

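HDAC3 list 2 held 246 peaks without a partner in list 1, and 76 of these also met no other deacetylase. These peaks, outside the rule, had a median width of 2413 bp, and 6 of 76 (7.89%, interval 3.67% to 16.2%) met CTCF 200 and 17 (22.4%, 14.5% to 32.9%) Caudal at 4 to 8 h. Of the 76, 6 lay on chromosome 4. Off the arms HDAC3 list 2 had 13 peaks, of which 3 would meet the rule, at chr3LHet:2397720-2399633, chrUextra:528378-529573 and chrXHet:84512-86560.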
